A study of Mus musculus with 12 samples.

Results

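The cohesin complex and the proteins that load it onto DNA and hold it there were followed through the genes Smc1a, Smc3, Rad21, Stag1, Stag2, Nipbl, Pds5a and Pds5b in mouse liver. These 8 of the 18193 genes named on the array were read by every probe set that names 1 of them in the platform's gene table, 27 of the 45037 probe sets tested. A probe set is made of several short oligonucleotides, fixed to the array, that bind the RNA copy of a transcript. The set was chosen by the measured values of Smc1a on these arrays, on which the probe sets of this gene differ, so the values of Smc1a are given below as a description with no test, and tests are given for the 24 probe sets of the other 7 genes. Liver RNA of adult male C57BL/6 mice on a standard diet was hybridised to 12 Affymetrix mouse genome expression arrays, 1 array per sample, and each sample is read here as 1 mouse, which the labels and methods do not state. The control mice (replicates 1 to 4) had sham exposure to HEPA-filtered air, the SHS4m mice (replicates 66 to 69) had secondhand smoke for 4 months, and the SHS4m+1m recovery mice (replicates 70 to 73) had the same exposure and then 1 month in clean air. The study had sham subgroups with and without the recovery month, and the labels do not say which of them the control arrays belong to. The age of the controls relative to each exposed group therefore cannot be given.

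Cohesin is a ring of the coiled-coil proteins Smc1a and Smc3, closed by the kleisin Rad21, to which either Stag1 or Stag2 binds. Nipbl, with its partner Mau2, loads the ring onto chromatin, and Pds5a and Pds5b bind the loaded ring and take part both in its release with Wapl and in its maintenance. The ring holds sister chromatids together in dividing cells, and in cells that rarely divide, such as hepatocytes, it is known for extruding loops of chromatin that end at sites bound by Ctcf.

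Values are log2 signals, with signals below 32 raised to 32, so that 5 is the lowest log2 value. Such low signals made up 29.9% to 33.5% of each array. Actin's 3′ to 5′ ratio, a measure of RNA degradation that is higher in degraded RNA, was 3.24 to 3.9 in controls, 3.9 to 4.64 in SHS4m mice and 4.1 to 8.82 in recovery mice, so that every recovery array lay above every control array. The array of recovery replicate 72 stood apart at 8.82. For Gapdh the ratio of replicate 72 was 4.52, and on the other 11 arrays, where the 3 groups overlapped, it was 2.24 to 2.95. All 6 hepatocyte markers examined were above the floor, and none of them passed the adjusted p in any comparison by limma. In SHS4m mice against controls 4 had an unadjusted p under 0.05, against 17.4% of all probe sets. Of these, Tat was higher (difference 0.89), and Apoa1, Ttr and Cyp3a11 were lower (-0.30, -0.36 and -0.28). Between recovery and SHS4m mice Tat differed by -1.03 (adjusted p = 0.0699). The brightness of a probe set depends on its probes as well as on its transcript, so signals are compared between groups within a probe set and not between probe sets. Because the samples are pieces of whole liver, fewer cells of a type and less RNA per cell cannot be told apart.

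Among the members, Smc1a lies on chromosome X at 152016428-152061973 (GRCm38.p6), and its annotated span shares 459 bases with that of Ribc1, at 152004580-152016886. Stag2 is on the same chromosome at 42149297-42277186. Pds5a and Pds5b are both on chromosome 5, at 65605719-65698236 and 150673713-150810669. Sequences from 250 bases before to 50 bases after a transcript start were found in RefSeq (GRCm38.p6) for 5 of the 8 genes, namely Smc1a, Smc3, Stag1, Pds5a and Pds5b. The windows of Smc1a, whose probe sets disagree, and of Pds5a and Pds5b, each with a probe set that passed the test below, are shown 5′ to 3′ on the strand of the gene, with the matches to the motifs named below in capitals.
Smc1a (chrX:152016178-152016477, plus strand): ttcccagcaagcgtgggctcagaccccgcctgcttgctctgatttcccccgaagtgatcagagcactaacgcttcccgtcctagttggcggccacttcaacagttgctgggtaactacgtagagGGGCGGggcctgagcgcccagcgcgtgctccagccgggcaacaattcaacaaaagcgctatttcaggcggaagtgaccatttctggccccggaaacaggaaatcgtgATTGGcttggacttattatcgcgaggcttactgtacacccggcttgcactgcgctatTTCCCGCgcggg
Pds5a (chr5:65698187-65698486, minus strand): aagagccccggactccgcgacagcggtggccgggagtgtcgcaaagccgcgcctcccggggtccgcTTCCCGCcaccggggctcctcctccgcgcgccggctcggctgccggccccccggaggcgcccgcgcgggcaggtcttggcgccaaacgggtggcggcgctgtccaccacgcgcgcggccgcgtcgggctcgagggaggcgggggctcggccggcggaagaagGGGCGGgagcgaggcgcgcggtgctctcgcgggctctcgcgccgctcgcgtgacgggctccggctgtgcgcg
Pds5b (chr5:150673577-150673876, plus strand): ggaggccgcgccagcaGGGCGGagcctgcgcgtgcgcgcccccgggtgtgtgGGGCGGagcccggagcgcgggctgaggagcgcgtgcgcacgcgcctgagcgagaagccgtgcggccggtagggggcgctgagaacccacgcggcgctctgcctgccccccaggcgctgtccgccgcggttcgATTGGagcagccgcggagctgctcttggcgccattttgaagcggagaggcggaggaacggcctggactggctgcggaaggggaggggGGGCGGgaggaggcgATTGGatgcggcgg

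The 6 motifs, which did not overlap each other in these windows, were searched on both strands. All 5 windows held a GC box (GGGCGG), which 35.7% of 32851 mouse promoter windows of this length hold. The E2F-like motif TTCCCGC was in 3 of them, against 4.6% of all windows, and the CCAAT box (CCAAT) was also in 3, against 37.4%. None held the ETS core CCGGAAG (8.86% of all windows), the E-box CACGTG (7.15%) or the TATA box TATAAA (13.6%). The 5 windows were 58.3% to 80.3% G and C, and the shares over all windows were not matched for this. The Stag1 window, at 100643198-100643497 on chromosome 9, lies inside the annotated span of the gene, 100597709-100958544, and so belongs to an internal start. In the Smc1a window the capitals mark 1 GC box, 1 CCAAT box on the opposite strand and 1 E2F-like motif. Its window and that of Ribc1, which runs the other way, shared 232 bases. A match to these letters is a description of the window and says nothing of a factor's binding in these livers.

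The probe sets of Smc1a differed in opposite directions. Smc1a is read by 1417830_at, by 1417831_at and by the third probe set, the next in the manufacturer's numbering. The signal of the third was lower in every SHS4m mouse than in any control and lower again in every recovery mouse, whereas that of 1417830_at was higher in every recovery mouse than in any control. On the third probe set the log2 signal was 8.97, 8.96, 9.02 and 8.93 in controls, 8.16, 7.89, 7.96 and 7.67 in SHS4m mice, and 7.16, 6.98, 6.41 and 5.09 in recovery mice. None of the 3 groups overlapped another. In SHS4m mice the difference from control was -1.05 (standard error 0.379), which is 2.08-fold lower. After recovery it was -2.56 (standard error 0.379), which is 5.9-fold lower. Both standard errors come from a spread pooled over the 3 groups. The SD was 0.0376 in controls, 0.204 in SHS4m mice and 0.937 in recovery mice. The difference between the exposed groups was -1.51, so the signal was 2.84-fold lower after the month in clean air than at the end of exposure.

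Probe set 1417831_at had log2 signals of 8.94, 8.88, 9.34 and 9.10 in controls, 8.31, 8.26, 8.33 and 7.76 in SHS4m mice, and 8.43, 8.48, 7.66 and 7.45 in recovery mice. Both exposed groups lay wholly below the controls and overlapped each other. It differed from control by -0.90 at the end of exposure (1.87-fold lower) and by -1.06 after recovery (2.08-fold lower). The brightest probe set, 1417830_at, had log2 signals of 10.16, 10.13, 10.19 and 10.25 in controls, 9.97, 10.47, 10.14 and 9.96 in SHS4m mice, and 10.49, 10.51, 10.51 and 10.42 in recovery mice. The SHS4m values lay on both sides of the controls (difference -0.05), and the recovery values were all above them (difference 0.30, 1.23-fold higher).

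Recovery replicate 73 had the lowest value on the third Smc1a probe set, at 5.09, close to the floor. Without it the difference from control was -2.12, and without replicate 72, the array with the high actin ratio, it was -2.56. The actin ratio of replicate 73 was 4.35, above all 4 controls. Without replicate 72 the recovery ratios were 4.1 to 4.36, within the SHS4m range of 3.9 to 4.64. The part of RNA quality in the differences between the Smc1a probe sets was not tested. Taken as a log2 ratio to 1417830_at on the same array, this probe set was at -1.21 ± 0.0742 (SD, n = 4) in controls, -2.22 ± 0.324 at the end of exposure and -4.07 ± 0.901 after recovery. The change of this ratio is read here, not its level. In the recovery mice the ratios were -3.34, -3.52, -4.10 and -5.33, and the highest of them lay below the lowest SHS4m ratio of -2.59. The parts of the transcript that the 3 probe sets read are not given in the files used here.

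**Figure D1:**
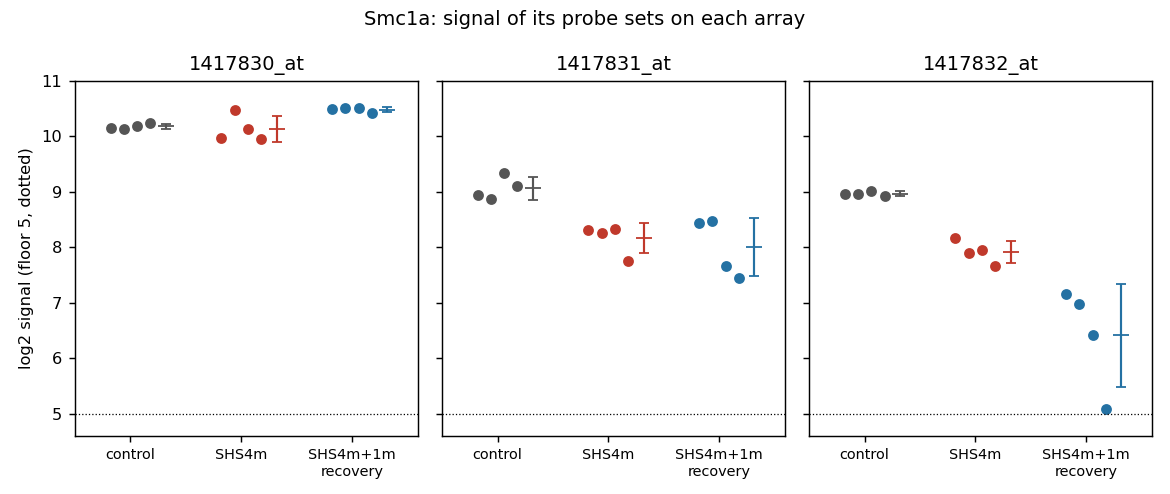
Log2 signal (y axis) of the 3 probe sets of Smc1a in control, SHS4m and SHS4m+1m recovery mice (x axis). Points are single arrays (4 per group), horizontal marks with bars are means and SD, and the dotted line is the floor at 5. On the third probe set (right) the recovery values of 5.09 to 7.16 lie below the SHS4m values of 7.67 to 8.16 and the control values of 8.93 to 9.02, while on 1417830_at the recovery values of 10.42 to 10.51 lie above the control values of 10.13 to 10.25.

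To set this disagreement beside that of other genes, the lowest log2 difference among the probe sets of a gene was subtracted from the highest, for each of 9010 genes with 2 or more probe sets. In the comparison of recovery mice with controls this spread was 2.86 for Smc1a, the largest of the 9010 genes, and the next were Rgs16 with 2.39 and Kank1 with 2.31. The median over all these genes was 0.36. Among 1360 genes whose probe sets all had a mean log2 signal of at least 8 in controls, well above the floor, the spread of Smc1a was likewise the largest, and the median was 0.22. Since Smc1a was selected on these values, its rank is a description.

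For the other members the same spread was 0.01 for Stag2, 0.38 for Pds5b, 0.52 for Nipbl, 0.62 for Smc3, 0.78 for Rad21, 0.92 for Pds5a and 1.46 for Stag1. Stag1 has 6 probe sets, and a spread of at least its size was found in 1.6% of the genes. These genes were not matched to Stag1 in their number of probe sets, and a range over more probe sets tends to be wider. The highest difference of Stag1 came from 1441724_at, which was at the floor on 2 of 12 arrays. In SHS4m mice against controls the spread of Smc1a was 1.01, a size reached by 9.3% of the genes, and those of the other members were 0.25 to 0.74. Pds5a, at 0.25, had the smallest spread of the 8 there, whereas in recovery mice it was Stag2.

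**Figure D2:**
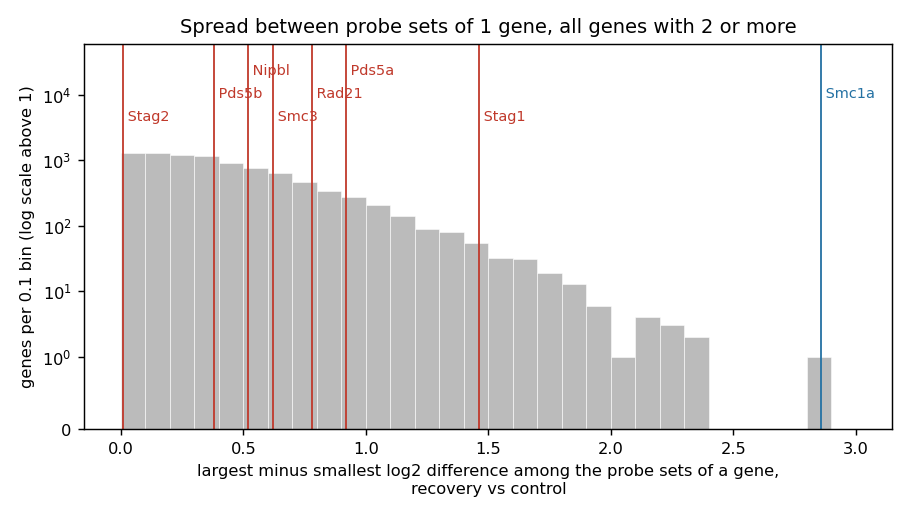
Number of genes per bin of 0.1 (y axis, log scale above 1) by the spread between the probe sets of a gene, the highest minus the lowest log2 difference between recovery and control mice (x axis), over 9010 genes. Vertical lines mark the 8 members. Smc1a lies at 2.86, beyond all other genes, and the other members lie between 0.01 and 1.46.

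Whether the probe sets of the other 7 members moved apart was tested in a limma fit of the log2 ratio of each further probe set to the gene's brightest one, over 16752 such ratios of the array. None of the 17 ratios of these members passed an adjusted p under 0.05 in any comparison. For Pds5a 1442731_at and Pds5b 1441553_at, at the floor on 11 of 12 arrays, the ratio only restates the signal of the brightest probe set. Over the other 15 ratios the lowest adjusted p was 0.137 in SHS4m mice against controls (Pds5b 1435242_at), 0.124 in recovery mice against controls (Stag1 1450420_at) and 0.137 in recovery against SHS4m mice (Stag1 1431921_a_at). Of these 15, 1, 3 and 3 had an unadjusted p under 0.05. Over all ratios 1.11%, 0.752% and 0.304% passed the adjusted p in these comparisons. The largest ratio difference in recovery mice belonged to Pds5a, at 0.92 between 1441238_at and 1425082_s_at (standard error 0.341, adjusted p = 0.266), followed by Stag1 1450420_at, at -0.84 (standard error 0.231, adjusted p = 0.124).

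The 24 probe sets of the members other than Smc1a were tested in all 3 comparisons. In SHS4m mice against controls 1 of 24 passed the adjusted p, a lower signal of Pds5b, where 2.87% of all probe sets were called lower and 2.52% higher. In recovery mice against controls it was again 1 of 24, a lower signal of Pds5a, where 1.19% were called lower and 0.877% higher. Between recovery and SHS4m mice limma called 0 of 24, where 1.32% of all probe sets were called higher and 1.22% lower. These first 2 comparisons share the 4 control arrays. By an unadjusted p under 0.05, 2, 4 and 5 of the 24 differed, against 17.4%, 13.3% and 13.7% of all probe sets. At the study's threshold, taken as an unadjusted p under 0.05 with a change of at least 2-fold, the counts were 0, 0 and 0, against 2.47%, 1.37% and 1.7% of all probe sets.

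The median log2 difference over the 24 probe sets was 0.00 for SHS4m against control mice, -0.07 for recovery against control mice and 0.05 between the exposed groups, beside 0.00 over all probe sets in each comparison. Leaving out the probe sets of Pds5a and Pds5b that were at the floor on 11 of 12 arrays, a change of 2-fold or more lay outside the 95% confidence interval for 20, 17 and 16 of 22. Over the brightest probe sets of the 7 genes, the intervals ran from -0.96 to 0.36 in SHS4m mice and from -0.83 to 0.74 in recovery mice, so that a 2-fold change from control lay outside all of them.

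**Figure D3:**
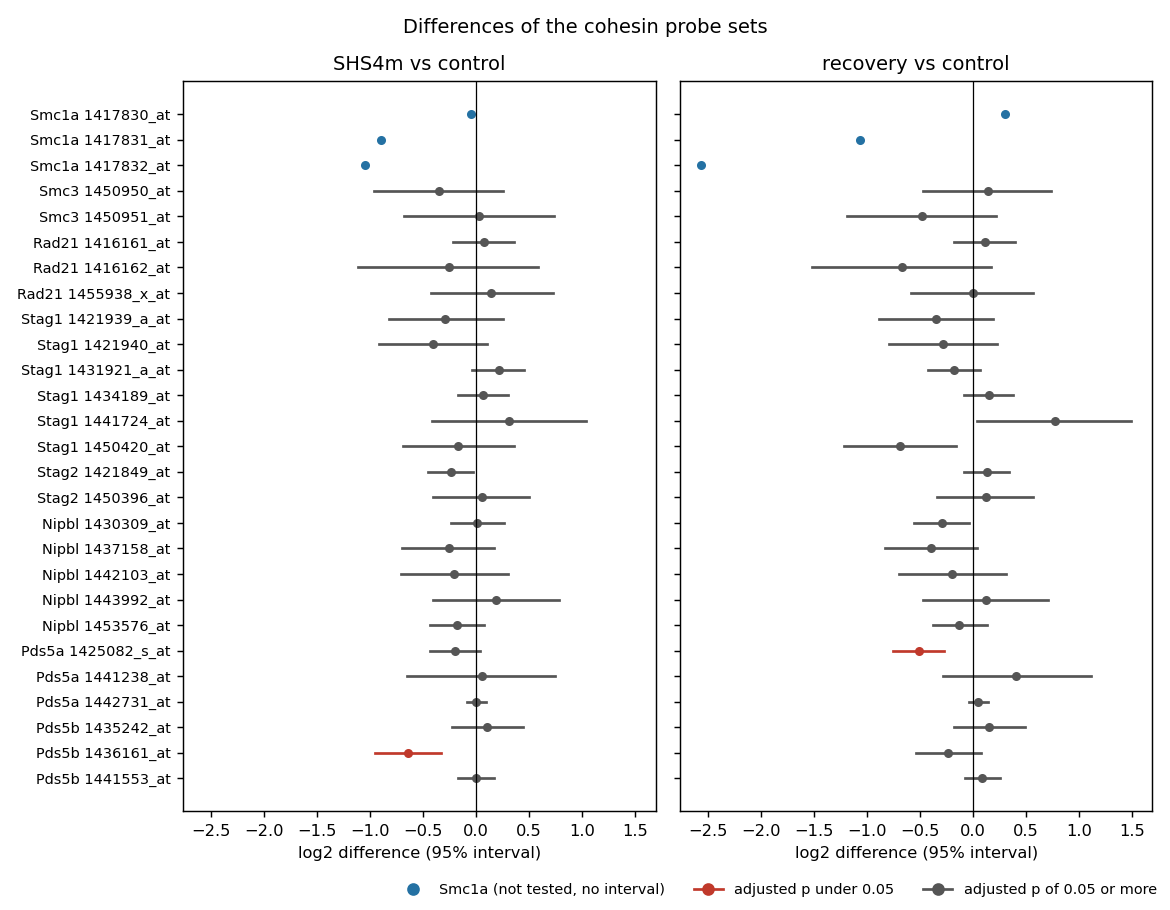
Log2 difference from control (x axis) of each of the 27 probe sets (y axis) in SHS4m mice (left) and recovery mice (right). Points are differences of group means over 4 arrays each and lines are 95% confidence intervals from limma, which are left out for Smc1a because it was not tested. The third probe set of Smc1a lies at -1.05 and -2.56, and the other genes lie between -0.69 and 0.77, with Pds5b 1436161_at (left) and Pds5a 1425082_s_at (right) past the adjusted p.

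Smc3, the partner of Smc1a in the ring, did not pass the test on either probe set. On 1450950_at the log2 signal was 8.82, 7.92, 8.26 and 8.66 in controls, 7.71, 8.22, 8.38 and 7.95 in SHS4m mice, and 8.01, 8.83, 8.34 and 9.03 in recovery mice. The groups overlapped, with differences from control of -0.35 (adjusted p = 0.612) and 0.14 (adjusted p = 0.937). The other probe set, 1450951_at, differed by 0.03 and -0.48 (adjusted p = 1 and 0.607).

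Rad21, the kleisin that closes the ring, was read by 3 probe sets. The log2 signal of 1416161_at was 11.13 to 11.43 in controls, 11.16 to 11.40 in SHS4m mice and 10.95 to 11.52 in recovery mice, and the differences from control were 0.07 and 0.11 (standard error 0.13 each). Both are smaller than the SD between control mice of 0.143. For 1455938_x_at they were 0.14 and 0.00, and for the third, 1416162_at, they were -0.26 and -0.67 (adjusted p = 0.825 and 0.514), with SHS4m values as far apart as 5.63 and 7.29. Overlap with related sequences was not examined for 1455938_x_at, whose suffix marks probes shared with other transcripts.

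Stag1 and Stag2 take the same place on the ring. Stag2 1421849_at had log2 signals of 11.54, 11.56, 11.20 and 11.49 in controls, 11.29, 11.20, 11.12 and 11.22 in SHS4m mice, and 11.36, 11.59, 11.73 and 11.62 in recovery mice. Every recovery mouse was above every SHS4m mouse, and control replicate 3 lay among the SHS4m values. The difference between recovery and SHS4m mice was 0.37 (standard error 0.0947, adjusted p = 0.0836), and without recovery replicate 70 the call was made. Against controls it was -0.24 in SHS4m mice (adjusted p = 0.213) and 0.13 in recovery mice (adjusted p = 0.675). Its other probe set, 1450396_at, differed from control by 0.05 and 0.12.

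The 6 probe sets of Stag1 had differences of -0.41 to 0.31 in SHS4m mice and -0.69 to 0.77 in recovery mice, where this was the widest range of the 7 genes, and none passed the adjusted p. The brightest, 1434189_at, differed from control by 0.06 and 0.15 (adjusted p = 0.859 and 0.64). On 1450420_at the log2 signal was 7.78, 7.70, 8.07 and 7.58 in controls and 7.62, 6.71, 6.65 and 7.39 in recovery mice, a difference of -0.69 (standard error 0.234, adjusted p = 0.204). Replicate 70 lay within the control range and the other 3 recovery mice below it. The opposite difference came from 1441724_at, 0.77 in recovery mice (standard error 0.324, adjusted p = 0.336), whose signal was at the floor on 2 of 12 arrays.

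Nipbl, the loader, had 5 probe sets, and none passed the test. The log2 signal of 1437158_at was 9.80, 9.93, 9.56 and 9.53 in controls, 9.24, 10, 9.49 and 9.03 in SHS4m mice, and 9.42, 9.11, 9.45 and 9.27 in recovery mice. All 4 recovery values lay below all 4 control values, by -0.39 on average (standard error 0.193, adjusted p = 0.43). On 1430309_at the recovery mice also lay below the controls, at 8.92 to 9.21 against 9.23 to 9.49 (difference -0.29, standard error 0.113, adjusted p = 0.272). The other 3 probe sets of Nipbl had differences of -0.20 to 0.12 in recovery mice.

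Pds5b, which binds the loaded ring, was lower in SHS4m mice on 1 of its 3 probe sets. On 1436161_at the log2 signal was 7.98, 8.36, 8.47 and 8.57 in controls, 7.81, 7.56, 7.77 and 7.68 in SHS4m mice, and 8.19, 7.86, 8.07 and 8.34 in recovery mice. All SHS4m values lay below all control and all recovery values. The difference from control was -0.64 (standard error 0.137, adjusted p = 0.0265), which is 1.56-fold lower. In recovery mice it was -0.23 (adjusted p = 0.55), and recovery mice differed from SHS4m mice by 0.41 (standard error 0.137, adjusted p = 0.188). The probe set 1435242_at did not pass the test. Its log2 signal was 7.46, 7.66, 7.13 and 7.59 in controls and 7.41, 7.73, 7.57 and 7.54 in SHS4m mice, a difference of 0.10 (adjusted p = 0.831). The third, 1441553_at, was at the floor on 11 of 12 arrays. The call on 1436161_at was lost without control replicate 2, 3 or 4 and without any SHS4m replicate (adjusted p up to 0.0753, differences of -0.76 to -0.56).

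Pds5a, a close relative with the same place on the ring, was lower in recovery mice, again on 1 of 3 probe sets. The log2 signal of 1425082_s_at was 8.05, 8.15, 8.40 and 8.16 in controls, 8.03, 7.96, 8.12 and 7.84 in SHS4m mice, and 7.70, 7.93, 7.50 and 7.58 in recovery mice. The recovery values lay below all control values, and the SHS4m values overlapped both groups. The difference from control was -0.51 (standard error 0.106, adjusted p = 0.0438), which is 1.42-fold lower, against -0.20 (adjusted p = 0.381) in SHS4m mice. On 1441238_at the recovery mice differed from control by 0.41, in the other direction (standard error 0.311, adjusted p = 0.675), and 1442731_at was at the floor on 11 of 12 arrays. The suffix of 1425082_s_at marks probes shared by several transcripts, and overlap with related sequences was not examined for it. The call was lost without any control replicate and without recovery replicate 70, 72 or 73 (adjusted p up to 0.106, differences of -0.59 to -0.44).

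**Figure D4:**
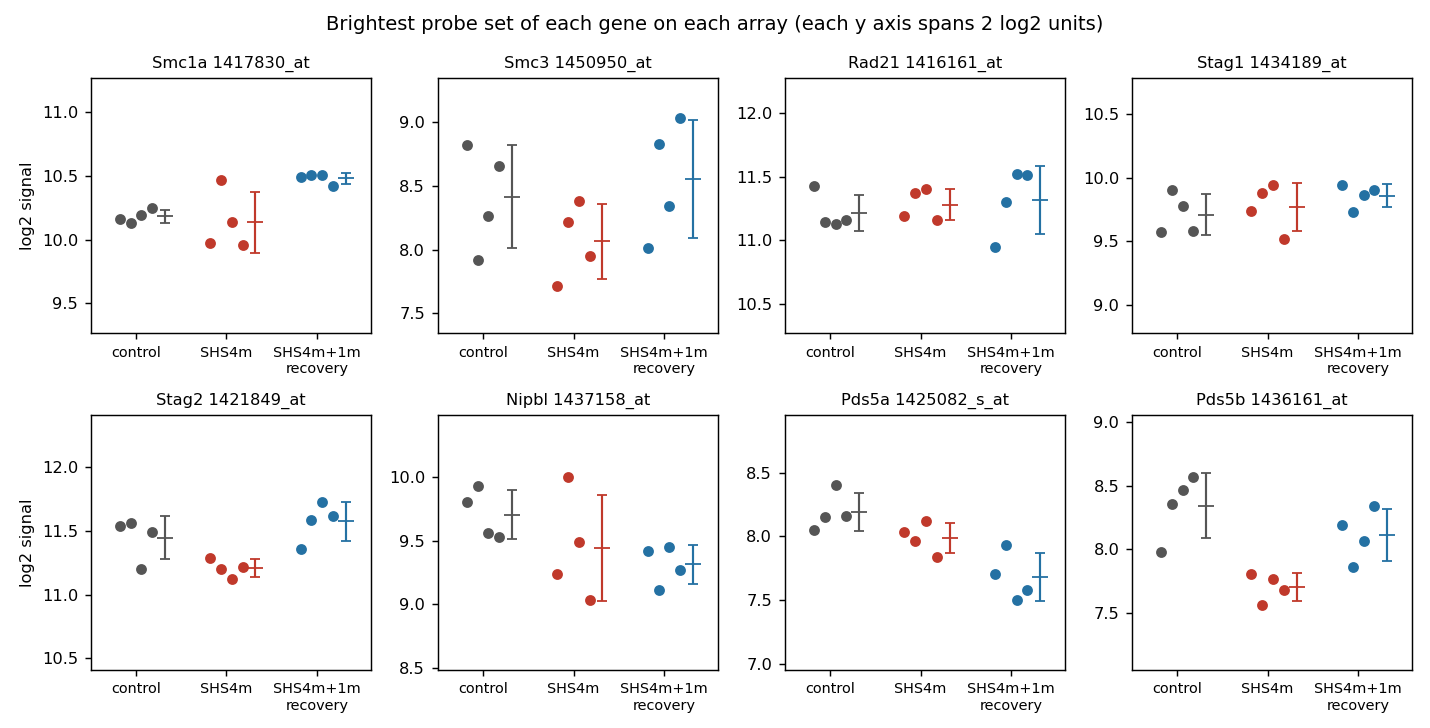
Log2 signal (y axis, each panel spanning 2 log2 units) of the brightest probe set of each of the 8 genes in control, SHS4m and SHS4m+1m recovery mice (x axis). Points are single arrays (4 per group) and horizontal marks with bars are means and SD. Pds5b has its lowest values in SHS4m mice (7.56 to 7.81), Pds5a in recovery mice (7.50 to 7.93), and the groups of Rad21 and Stag1 overlap throughout.

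Other genes that act with the ring were read by 1 probe set each, the brightest. Of 13 further cohesin subunits and regulators none passed the adjusted p in any of the 3 comparisons, and none had an unadjusted p under 0.05. Over all probe sets 17.4%, 13.3% and 13.7% had an unadjusted p under 0.05. The adjusted p called 2.87%, 1.19% and 1.22% lower and 2.52%, 0.877% and 1.32% higher, so a list of 13 can hold no call at these shares. Wapl, which opens the ring to release it, differed from control by 0.09 in SHS4m mice (adjusted p = 0.732) and 0.06 in recovery mice (adjusted p = 0.888). The acetyltransferase Esco1, which acts on Smc3, differed by -0.05 and 0.01 (adjusted p = 0.925 and 1). Mau2, the partner of Nipbl, differed by 0.37 and -0.12, with a standard error of 0.338. Esco2, Sgo1, Sgo2a and Smc1b, which serve in dividing or germ cells, were at the floor on 11 of 12 arrays each. The 8 factors that couple cohesion to DNA replication, Pcna among them (0.04 and -0.11), also gave no call in any comparison. Of these 8, 1, 1 and 0 had an unadjusted p under 0.05, beside the same 17.4%, 13.3% and 13.7% of all probe sets.

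Ctcf, the zinc finger protein at whose sites cohesin loops end, was the only one of 8 loop anchor and Mediator genes called on its brightest probe set, and it was lower in both exposed groups. On 1449042_at its log2 signal was 10.75, 10.80, 10.89 and 10.83 in controls, 10.28, 10.17, 10.38 and 10.21 in SHS4m mice, and 10.46, 9.92, 9.83 and 9.82 in recovery mice. Every exposed mouse lay below every control. The difference was -0.56 in SHS4m mice (standard error 0.127, adjusted p = 0.0335, 1.48-fold lower) and -0.81 in recovery mice (standard error 0.127, adjusted p = 0.016, 1.75-fold lower). A second probe set of Ctcf, 1418330_at, differed by -0.35 in SHS4m mice (standard error 0.0854, adjusted p = 0.0443) and by -0.27 in recovery mice (standard error 0.0854, adjusted p = 0.171). On it too the SHS4m values of 9.49 to 9.68 lay below the control values of 9.83 to 10.07. The SHS4m call on 1449042_at was lost without any 1 of the control or SHS4m replicates (adjusted p up to 0.0891), and the recovery call was kept without each 1 of the control or recovery replicates (up to 0.0491). Yy1, another factor at loop ends, differed on its brightest probe set by 0.19 in SHS4m mice (adjusted p = 0.249) and 0.35 in recovery mice (adjusted p = 0.0574). The paper lists another Yy1 probe set as at least 2-fold higher at the end of exposure, which was not examined here. The Mediator genes Med1, Med12, Med13 and Med23 differed by -0.20 to 0.40 in recovery mice. Over all probe sets 2.87% were called lower in SHS4m mice and 1.19% in recovery mice.

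The condensin and SMC5/6 complexes are relatives of cohesin that compact chromosomes and act in DNA repair. The list of 15 genes held subunits of these complexes and Smchd1, which belongs to neither. Of the 15, Smc2, Smc6 and Smchd1 were called lower in SHS4m mice, none was called higher, and none was called in recovery mice. Over all probe sets, dim ones included, 2.87% were called lower and 2.52% higher in SHS4m mice. In recovery mice limma gave 5 of the 15 an unadjusted p under 0.05, against 13.3% of all probe sets. In SHS4m mice 8 of the 15 had an unadjusted p under 0.05, against 17.4% of all probe sets. Beside Smc2, Smc6 and Smchd1 they were Ncapg2, with a difference of -0.70, and Ncapd3, Ncaph2, Nsmce1 and Nsmce4a, with differences of 0.31, 0.23, 0.14 and 0.28. Over the 15 the median difference from control was -0.08 at the end of exposure and -0.01 after recovery. Smc2, a core condensin subunit, had log2 signals of 7.69, 7.86, 7.46 and 7.31 in controls and 6.97, 6.75, 6.58 and 7.09 in SHS4m mice (1448635_at, difference -0.73, standard error 0.172, adjusted p = 0.0388). Smc6 (1422910_s_at) was at 10.22, 10.04, 10 and 10.16 in controls and 9.44, 9.64, 9.77 and 9.32 in SHS4m mice (difference -0.57, standard error 0.0987, adjusted p = 0.0111). Smchd1, which helps to silence the inactive X chromosome of females, was at 8.93, 8.77, 8.83 and 8.63 in controls and 8.47, 7.98, 8.27 and 8.30 in SHS4m mice, which like all mice here were male (1428251_at, difference -0.53, standard error 0.122, adjusted p = 0.034). In each of the 3 all SHS4m values lay below all control values. These 3 were picked by the call in this comparison, which favours such separation. In recovery mice their differences from control were -0.40, -0.43 and -0.31 (adjusted p = 0.358, 0.0638 and 0.281).

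Here too the probe sets of a gene were not alike. The other probe sets of Smc6 had differences of -0.35 to 0.22 in SHS4m mice, and the other of Smchd1 a difference of 0.59 with a standard error of 0.307. The suffix of Smc6 1422910_s_at marks probes shared by several transcripts, whose overlap was not examined. For Smc2, 1429658_a_at differed by -1.04 (standard error 0.349), with 1 SHS4m array at the floor. The call of Smc2 was lost without control replicate 1, 2 or 3 or without SHS4m replicate 66, 67 or 68 (adjusted p up to 0.0981), and that of Smchd1 without control replicate 1, 2 or 3 or SHS4m replicate 67, 68 or 69 (up to 0.0877).

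**Figure D5:**
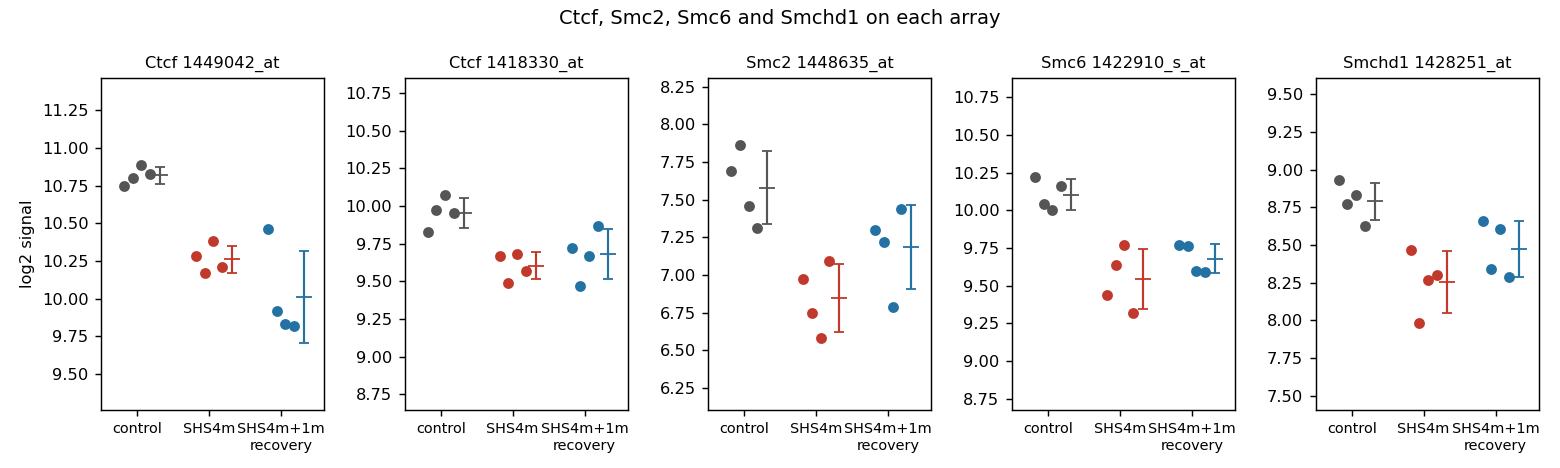
Log2 signal (y axis, each panel with its own range) of 2 probe sets of Ctcf and 1 each of Smc2, Smc6 and Smchd1 in control, SHS4m and SHS4m+1m recovery mice (x axis). Points are single arrays (4 per group) and horizontal marks with bars are means and SD. On all 5 probe sets the SHS4m values lie below the control values, and on Ctcf 1449042_at the recovery values of 9.82 to 10.46 do as well. The 5 are the probe sets of these genes called in SHS4m mice against controls, a choice that favours separation of these groups.

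Markers of other liver cells moved in the comparison in which Pds5b, Ctcf, Smc2, Smc6 and Smchd1 were lower. Of 6 lymphocyte markers 1 was called in SHS4m mice, Ptprc, the pan-leukocyte CD45 (difference -0.73, adjusted p = 0.0166). In that comparison 2 of the 6 had an unadjusted p under 0.05, against 17.4% of all probe sets. Their summed signal was 924 to 1520 in controls, 633 to 795 in SHS4m mice and 1050 to 1150 in recovery mice. Of 6 Kupffer cell and macrophage markers Clec4f was lower (-0.51, adjusted p = 0.0173) and Marco higher (1.90, adjusted p = 0.0137). All 6 had an unadjusted p under 0.05 in SHS4m mice, with differences of -0.41 for Adgre1, -0.60 for Cd68, -0.25 for Csf1r and -0.31 for Cd5l, so that 5 of the 6 differences were below 0. The sums over this list were 13800 to 16300, 10900 to 13600 and 11900 to 15600. No marker of either list was at the floor on all arrays. Of 9 proliferation markers Cdk1 was higher in both exposed groups (1.31 and 1.73, adjusted p = 0.0256 and 0.0171), Aurkb was at the floor on all 12 arrays, and the sums were 515 to 694, 414 to 499 and 469 to 621. The 5 endothelial, 5 stellate cell and 4 cholangiocyte markers gave no call by limma. At an unadjusted p under 0.05 were 1, 1 and 1 in SHS4m mice and 0, 0 and 0 in recovery mice against controls. Between recovery and SHS4m mice they were 1, 3 and 0. All probe sets gave 17.4%, 13.3% and 13.7% in these comparisons. Ptprc (0.64, adjusted p = 0.0466) and Clec4f (0.46, adjusted p = 0.0442) were called higher in recovery than in SHS4m mice, where 1.32% of all probe sets were called higher. The part of these cell types in the lower signals of the cohesin and related genes was not tested.

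Of the 5 neighbours of Smc1a on chromosome X, 1 passed the test, in SHS4m mice. In that comparison 2.52% of all probe sets were called higher and 2.87% lower. By an unadjusted p under 0.05, 3, 2 and 3 of the 5 differed in the 3 comparisons, against 17.4%, 13.3% and 13.7% of all probe sets. Ribc1, whose promoter window overlaps that of Smc1a, differed from control by -0.59 in SHS4m mice (standard error 0.233, adjusted p = 0.215) and -0.54 in recovery mice (standard error 0.233, adjusted p = 0.352). Huwe1, a ubiquitin ligase, was higher in SHS4m mice (1415703_at, difference 0.51, standard error 0.0864, adjusted p = 0.00986). Its log2 signal was 9.95, 9.90, 9.83 and 10.11 in controls and 10.62, 10.46, 10.29 and 10.47 in SHS4m mice, with no overlap. The 4 other probe sets of Huwe1 had differences of -0.24 to 0.16 in SHS4m mice, and none was called. Kdm5c, Iqsec2 and Hsd17b10 had differences of -0.27 to 0.08 in SHS4m mice and -0.17 to 0.27 in recovery mice. The -0.27 belonged to Kdm5c (standard error 0.108, adjusted p = 0.228).

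Across the 12 arrays, 17356 probe sets of single named genes with a log2 range of at least 1 were ranked by Pearson correlation with the third probe set of Smc1a. The 5 genes most alike were Kif5b (1418431_at, r = 0.98), a kinesin motor, Atrx (1420947_at, r = 0.971), a chromatin remodeller, Cp (1417496_at, r = 0.967), the copper protein ceruloplasmin, Wbp11 (1430987_s_at, r = 0.965), a splicing factor, and Tlk1 (1439158_at, r = 0.961), a chromatin kinase. These are correlations over 12 arrays that fall into 3 groups and share each array's RNA and scaling, and they are given as a description. Of the members, Pds5a 1425082_s_at had r = 0.872 and Smc1a 1417831_at r = 0.857, whereas Smc1a 1417830_at had r = -0.57.

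These 5 probe sets were picked because they follow the third Smc1a probe set, which favours large falls in recovery mice. None of them was the brightest of its gene, and other probe sets of the same genes were mostly closer to control. Their differences between recovery and control mice were -1.03, -1.12, -1.16, -2.09 and -1.03 in the order above. The 5 other probe sets of Kif5b had differences of -0.44 to 0.12, the 7 of Cp -0.37 to 0.39, the 2 of Wbp11 -0.02 to 0.10 and the 4 of Tlk1 -0.46 to 0.15. Atrx was the exception, with 6 other probe sets from -1.33 to 0.30.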

How the data were processed

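Liver total RNA of 12 samples was hybridised to Affymetrix mouse genome expression arrays, 4 per group. The deposited values are intensities on a linear scale, which the authors made in Affymetrix Expression Console (the version and the summarisation algorithm are not given in the sources used here), with each array's mean, after trimming 2% at each end, set to 500. The number of arrays limits the precision. Since no source says that each array held RNA of a separate mouse, the p-values measure the spread between these samples, which are read as mice here.

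Values below 32 were raised to 32 and log2 was taken. After leaving out 64 array controls, 45037 probe sets were fitted with limma 3.58.1 (R 4.3.3) in 1 model of the 3 groups, with two-sided p-values adjusted by Benjamini-Hochberg over all of them, and a call is an adjusted p under 0.05. Log2 ratios of the probe sets of a gene to its brightest one (highest mean over all arrays) were fitted in the same way. The code was tested on simulated data. Of the probe sets, 34945 name 1 gene, 932 several and 9160 none. Gene positions are from RefSeq (GRCm38.p6).

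The members and the gene lists were chosen with earlier results of these data known. The rule for naming genes was all members, up to 3 called genes per list and comparison, and the 5 genes most alike to Smc1a 1417832_at, called the third Smc1a probe set. List genes were read by their brightest probe set. Rgs16 and Kank1, next to Smc1a in the spread between probe sets, and the uncalled list genes given as examples were named after their values were seen. Alternatives were quantile normalization, centring each array on its median, other floors, a filter on dim probe sets, fits of 2 groups, an intensity trend with robust variance, the study's threshold, and leaving out each array.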

Additional observations from a re-analysis of the deposited data

Results flagged for a closer look

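For the 7 genes other than Smc1a, in 10 of 68 groups of 4 arrays 1 array lay apart from the other 3 by Dixon's test (the gap to its nearest neighbour as a share of the group's range, above the 95% critical value for 4 arrays), where chance gives about 1 in 20. Recovery replicate 73 was low for Smc3 1450951_at (5.79 against 6.72 to 6.86, gap share 0.874), and control replicate 1 was high for Rad21 1416161_at (11.43 against 11.13 to 11.16, gap share 0.876).

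Among the Stag genes, recovery replicate 70 was low for Stag1 1421939_a_at (5.82 against 6.74 to 6.82, gap share 0.921). On Stag2 1450396_at, control replicate 3 was low (7.20 against 8.05 to 8.20, gap share 0.856) and SHS4m replicate 66 was high (8.20 against 7.84 to 7.88, gap share 0.895). Control replicate 2 was high on a pair of Nipbl probe sets, 1430309_at (9.49 against 9.23 to 9.26, gap share 0.89) and 1442103_at (6.75 against 5.85 to 6.00, gap share 0.83).

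For Pds5a 1441238_at, control replicate 1 was high (6.48 against 5.82 to 5.93, gap share 0.839). Recovery replicate 72, the array with the high actin 3′ to 5′ ratio, was the 1 array above the floor of 5 on Pds5a 1442731_at (5.20, gap share 1) and Pds5b 1441553_at (5.38, gap share 1). With the other arrays of the group at the floor, any higher value gives a gap share of 1. The chance rate given above therefore does not apply to the flags on these probe sets.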

How the results depend on the processing

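The count of called cohesin probe sets outside Smc1a was 1 in SHS4m mice against controls, and it was 0 with each array centred on its median, with no floor (log2 of the value plus 1), with only the 8 arrays of the 2 groups fitted and at the study's 2-fold threshold. In recovery mice against controls it was 1, and it was 0 with quantile normalization, centring, a floor at the 25th percentile of each array, no floor, the filter on dim probe sets, only 8 arrays and the study's threshold. Leaving out 1 array at a time gave 0 to 1 in each of the 3 comparisons. The 1 between recovery and SHS4m mice was Stag2 1421849_at without recovery replicate 70, and the other alternatives gave 0 there. No within-gene ratio of the 7 genes was called under any alternative. The call of Pds5b 1436161_at was lost under 10 of 15 alternatives (adjusted p up to 0.0774), that of Pds5a 1425082_s_at under 13 of 15 (up to 0.176), that of Ctcf 1449042_at under 11 of 15 in SHS4m mice (up to 0.102) and 2 of 15 in recovery mice (no floor and only 8 arrays, up to 0.0776), that of Smc2 under 11 (up to 0.0981), Smchd1 10 (up to 0.108), Smc6 2 (centring and no floor, up to 0.0875) and Huwe1 1 of 15 (no floor, 0.0704), all with the direction kept. The causes were not tested. The Smc1a differences from control moved by less than the spread between replicates of the groups compared under all 15 alternatives, except that centring moved that of 1417830_at in recovery mice from 0.30 to 0.38. For the third Smc1a probe set they ran from -2.81 to -2.12 in recovery mice and from -1.13 to -0.97 in SHS4m mice, for 1417831_at from -1.22 to -0.87 and from -0.96 to -0.76, and for 1417830_at from 0.29 to 0.38 and from -0.16 to 0.03. Signals at or near the floor, as on Pds5a 1442731_at and Pds5b 1441553_at, cannot show a decrease. No paired analysis was possible because the replicate numbers of the groups do not repeat.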
